A study of Mus musculus with 9 samples.

Results

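Complement components and regulators were examined in the sorted proximal tubular epithelia of diabetic mice through 7 genes, chosen by name: C3, C4b, Cfb, Cfi, Serping1, Cd55 and Cd59a. They are 7 of the 24421 genes listed for each mouse, and all 7 passed the filter on low values. A wider set of 59 complement genes, which holds these 7 and is sorted by role, is given beside them.

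Complement is a cascade of plasma proteins that marks surfaces for removal and can end in a pore through a membrane. The classical and lectin routes cleave C4 and C2, the alternative route uses factor B, and all routes meet at C3. The liver makes most of the circulating protein, but tubular epithelium also transcribes C3 and factor B, and cells that face active complement hold it in check with soluble regulators and with regulators anchored in their own membrane.

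All 9 mice were C57BL/6 and carried SLC34a1GCE, a GFP-CreERT2 cassette in the locus of the proximal tubular phosphate transporter Slc34a1, and R26tdTomato, a reporter that turns on after Cre acts. Tamoxifen was injected 5 times at 3 mg per mouse, starting at 8 weeks of age, and tdTomato-positive cells were later sorted from minced kidney cortex, although the labels name the tissue only as kidney. The non-diabetic *db/m* mice (n = 3) are heterozygous for the leptin receptor mutation, and the homozygous mutants received vehicle (*db/db*, n = 3) or dapagliflozin, an inhibitor of the glucose transporter SGLT2, at 1.5 mg/kg/day in the drinking water for 8 weeks (*db/db*-dapa, n = 3). The comparison of *db/db*-dapa against *db/db* is called the drug comparison below, and where values are given for all 3 comparisons without names it stands between *db/db* against *db/m* and *db/db*-dapa against *db/m*. Each library came from 1 mouse, so the spread given is between animals. The estimated counts summed to 6571572, 5754910 and 4817721 in *db/m*, to 2733349, 4951113 and 7635669 in *db/db*, and to 6981225, 7626107 and 9033123 in *db/db*-dapa mice. The *db/db* replicate 1 library was the smallest, and a count of 3 equalled 1.02 CPM (counts relative to library size after scaling) in it and 0.339 CPM in *db/db*-dapa replicate 3.

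The label of the cells was checked against 10 marker genes of the proximal tubule, all of which were detected in all 9 libraries. Together they summed to 13942, 14504 and 15177 CPM in *db/m*, to 17753, 16896 and 21202 CPM in *db/db*, and to 18031, 20276 and 22278 CPM in *db/db*-dapa mice. The *db/m* libraries were thus the lowest for this list, without overlap, although edgeR called 0 of its 10 genes in each comparison (2, 0 and 3 at an unadjusted p under 0.05, beside 13.7%, 5.19% and 18.2% of all tested genes, for *db/db* against *db/m*, *db/db*-dapa against *db/db* and *db/db*-dapa against *db/m*), DESeq2 called 1 in the last and limma 0. A gene said here to lead its list had the highest mean CPM over the 9 mice, without correction for length, and need not be first in each mouse or per kilobase. Slc34a1, which led this list, was at 3530 to 4154 CPM in *db/m*, 4404 to 6196 CPM for *db/db* and 4464 to 4631 CPM for *db/db*-dapa mice.

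Markers of other cells were also present. Those of the distal nephron and collecting duct, led by Umod, summed to 1526, 1197 and 2801 CPM in *db/m*, 1972, 968 and 1053 CPM in *db/db*, and 1067, 867 and 984 CPM in *db/db*-dapa mice. The 12 macrophage and dendritic cell markers, led by Cd74, summed to 640, 464 and 251 CPM in *db/m*, 486, 430 and 160 CPM in *db/db*, and 409, 215 and 127 CPM in *db/db*-dapa mice, and none of the 12 was at 0 in any library. Hepatocyte markers, which matter here because liver makes most complement protein, summed to between 16.9 and 101 CPM and were led by Alb, with Apoa1, Ttr and Fgb at 0 in at least 1 library. All 8 lymphocyte markers were at 0 in at least 1 library. Neutrophil markers summed to 3.79 to 68.4, endothelial markers to 51.4 to 231 and fibroblast, mesangial and pericyte markers to 5.66 to 31.4 CPM. Podocyte and parietal cell markers stood at 301 CPM in *db/db*-dapa replicate 1 against 56.2 to 121 CPM elsewhere, and erythrocyte genes at 1462 CPM in *db/db* replicate 2 against 29.6 to 421 CPM elsewhere. The part of these cells in the values below was not tested, and in such bulk samples fewer cells of a type and less RNA per cell cannot be told apart.

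Cd55, the regulator that takes apart the convertases of the cascade, was the member called. It was 14.6-fold lower in *db/db* than in *db/m* mice and 6.01-fold lower in *db/db*-dapa than in *db/m* mice by the fitted values. A gene was called when edgeR's quasi-likelihood test, adjusted over all 15583 tested genes, gave a p below 0.1 and the log2 fold change exceeded 1 in size. Of the 7 members, 1 was called in *db/db* against *db/m* mice, where 1.26% of all tested genes were called, and 1 in *db/db*-dapa against *db/m* mice, where 1.05% were. In the drug comparison edgeR called 0 of the 7 members and 0% of all tested genes, while 2 members and 809 genes had an unadjusted p under 0.05. In that comparison DESeq2 called 0 members and 13 genes, and limma 0 members and 0 genes. Both comparisons with *db/m* use the same control mice, so their values are not independent of each other.

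The levels of the 7 genes were spread widely. Per kilobase of the longest transcript, Cfb stood highest in *db/m* mice at 169 ± 16.98 CPM per kb (SD, n = 3), followed by C3 at 13.5 ± 9.06, Cd59a at 12.9 ± 5.28 and C4b at 6.99 ± 1.83 CPM per kb. Below these came Cd55 at 4.19 ± 1.15, Cfi at 1.98 ± 0.343 and Serping1 at 1.19 ± 0.0581 CPM per kb. In this order C3, Cd59a and C4b overlapped between mice, and the other neighbours did not. The *db/db* order was Cfb, C3, Cd59a, C4b, Cfi, Serping1 and Cd55, so that Cd55 was last at 0.247 ± 0.175 CPM per kb. There C3 overlapped Cd59a, and Serping1 overlapped both Cfi and Cd55. In *db/db*-dapa mice Cd55 (0.694 ± 0.270 CPM per kb) and Serping1 (0.663 ± 0.680) overlapped at the bottom of the order. Cfb alone made up between 66.7% and 81.8% of the summed CPM of the 7 genes in each mouse.

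**Figure D1:**
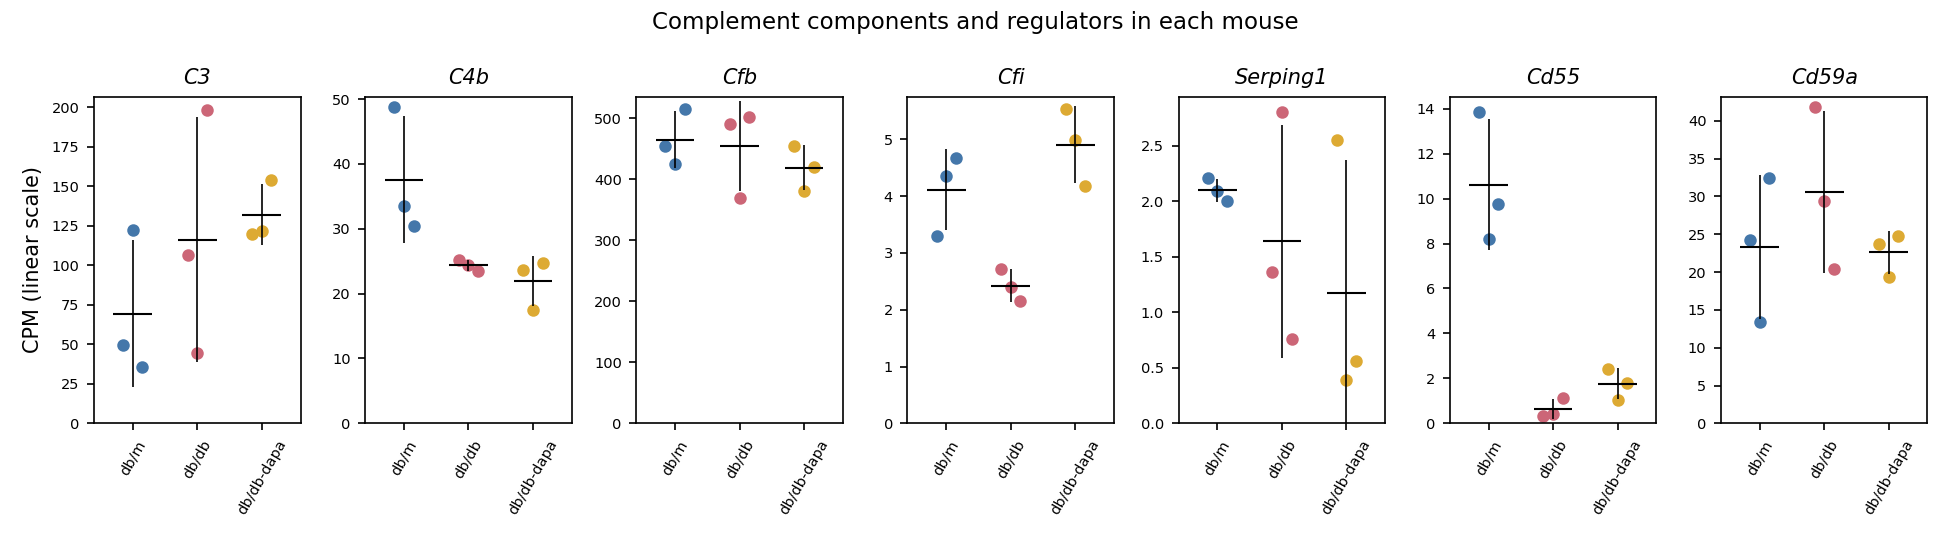
CPM of each of the 7 genes in each mouse on a linear axis from 0, with a separate scale per gene; points are mice, horizontal bars group means and vertical bars the SD (n = 3 per group). Cd55 lies between 8.20 and 13.9 CPM in *db/m* mice and between 0.340 and 2.41 CPM in all other mice.

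C3, the protein on which all routes converge, lies on chromosome 17 from 57203970 to 57228136, on the minus strand of GRCm38. It was at 49.8, 122 and 35.8 CPM in *db/m*, at 106, 44.6 and 198 CPM in *db/db*, and at 120, 122 and 154 CPM in *db/db*-dapa mice. Mice of 1 group differed by up to 4.44-fold (*db/db*), and the groups overlapped in all 3 comparisons. The log2 fold change was 0.75 (95% confidence interval -0.36 to 1.86) for *db/db* and 0.93 (-0.18 to 2.03) for *db/db*-dapa mice, each against *db/m*, at edgeR adjusted p = 0.554 and 0.337. In the drug comparison it was 0.18 (-0.92 to 1.27; edgeR adjusted p = 0.955). All 3 intervals included 0, and the value for *db/db* against *db/m* was as low as 0.09 with *db/db* replicate 3 left out and as high as 1.45 with *db/m* replicate 2 left out. The latter omission moved the *db/db*-dapa value against *db/m* to 1.62.

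C4b encodes the C4 protein of the classical and lectin routes and lies on chromosome 17 from 34728380 to 34743882. It stood at 48.8, 33.5 and 30.4 CPM in *db/m*, at 25.2, 24.4 and 23.5 CPM in *db/db*, and at 23.6, 17.5 and 24.7 CPM in *db/db*-dapa mice. Every *db/m* mouse lay above every mouse of the other groups, most clearly replicate 1, and the *db/db* and *db/db*-dapa mice overlapped. Against *db/m* mice the log2 fold change was -0.63 (SE 0.22, edgeR adjusted p = 0.232) for *db/db* and -0.78 (SE 0.21, edgeR adjusted p = 0.139) for *db/db*-dapa mice, so C4b was not called.

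Reads of C4b are not fully separable from those of its neighbour C4a, which lies on chromosome 17 from 34809092 to 34823464. Of the 101-base stretches of the longest C4b transcript, 16.3% occur unchanged in C4a, and 101 bases was the read length. C4a was at 26.8, 16.1 and 25.3 CPM in *db/m*, 1.36, 6.60 and 8.08 CPM in *db/db*, and 5.96, 4.86 and 7.92 CPM in *db/db*-dapa mice. All *db/m* mice were above all others. An alternative chosen after the data were seen added the counts of C4a to those of C4b. Against *db/m* mice the log2 fold change of this sum was -1.02 for *db/db* (edgeR adjusted p = 0.0513). For *db/db*-dapa mice it was -1.10 (edgeR adjusted p = 0.0529). The sum was called in both comparisons, as was C4a by itself in the main fit, while C4b by itself was not. The level of either copy alone is uncertain.

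Cfb encodes factor B, the catalytic part of the alternative convertase, and lies on chromosome 17 from 34856374 to 34862518. Its level was 454, 424 and 516 CPM in *db/m*, 491, 370 and 502 CPM in *db/db*, and 454, 380 and 421 CPM in *db/db*-dapa mice. The groups overlapped throughout, and within a group the mice differed by at most 1.36-fold. The 95% confidence interval of the log2 fold change was -0.42 to 0.36 in *db/db* against *db/m*, -0.51 to 0.27 in *db/db*-dapa against *db/db* and -0.54 to 0.24 in *db/db*-dapa against *db/m* mice, so a 2-fold difference lay outside all 3. The annotation also holds Gm20547, a read-through transcript that shares 81.0% of the 101-base stretches of Cfb and 53.1% of those of the adjacent gene C2. Gm20547 is not among the genes listed, and reads from the shared stretches cannot be assigned to 1 of the 2.

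**Figure D2:**
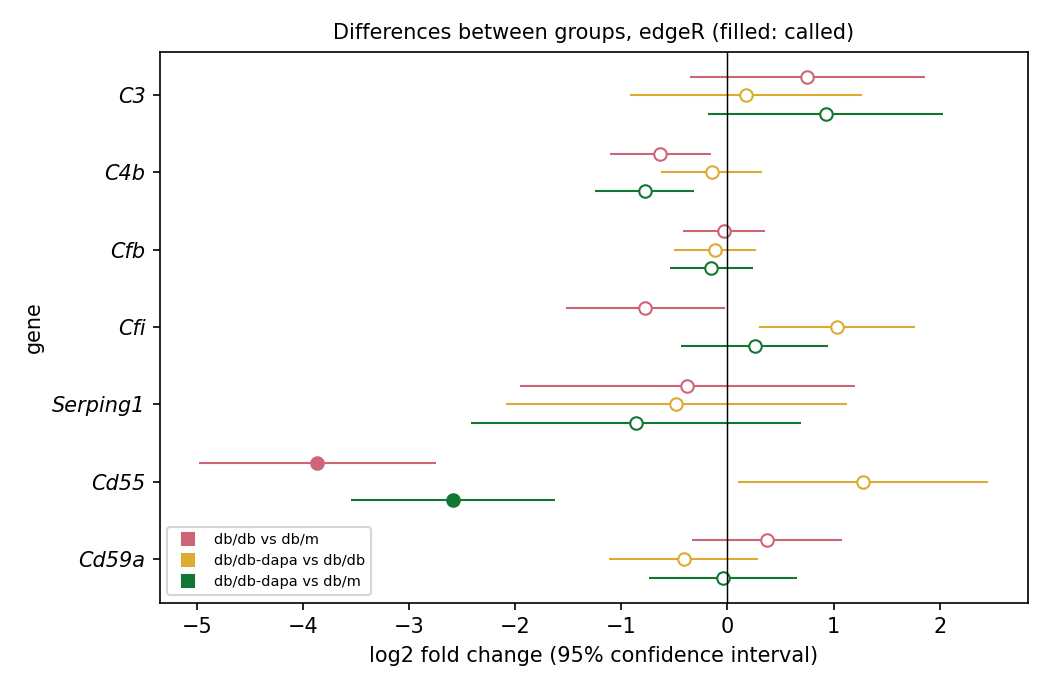
Log2 fold change of each of the 7 genes in 3 comparisons on the horizontal axis, with bars for the 95% confidence interval of the edgeR fit (not adjusted for the number of genes); filled points were called. Cd55 is filled in *db/db* against *db/m* (-3.86) and in *db/db*-dapa against *db/m* (-2.59), and all other points are open.

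Cfi encodes factor I, the protease that inactivates C3b and C4b, and lies on chromosome 3 from 129835884 to 129875332. It was at 3.31, 4.36 and 4.67 CPM in *db/m*, 2.72, 2.40 and 2.15 CPM in *db/db*, and 5.54, 4.99 and 4.19 CPM in *db/db*-dapa mice. The *db/db* mice were the lowest, below every mouse of both other groups, and *db/m* and *db/db*-dapa mice overlapped. In the drug comparison the log2 fold change was 1.03 (SE 0.33, 95% confidence interval 0.30 to 1.76), with edgeR adjusted p = 0.854. Against *db/m* mice it was -0.77 (SE 0.34, edgeR adjusted p = 0.347) for *db/db* and 0.26 (SE 0.32, edgeR adjusted p = 0.673) for *db/db*-dapa mice, and Cfi was called in none of the 3 comparisons. These levels rest on few reads, 8, 12 and 17 estimated counts in the *db/db* libraries.

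Serping1 encodes C1 inhibitor, which blocks the proteases that start the classical route, and lies on chromosome 2 from 84765387 to 84775444. It was at 2.205, 2.09 and 2.00 CPM in *db/m*, 1.36, 2.80 and 0.758 CPM in *db/db*, and 2.56, 0.394 and 0.566 CPM in *db/db*-dapa mice. The *db/m* mice agreed closely, while both other groups held a mouse above and a mouse below them. The counts ranged from 3 to 18, and the 95% confidence interval of the log2 fold change ran from -1.96 to 1.20 in *db/db* and from -2.42 to 0.70 in *db/db*-dapa against *db/m* mice. A 2-fold lower level lay inside both intervals, so a difference of that size was not excluded.

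Cd55 encodes decay-accelerating factor, a lipid-anchored membrane protein, and lies on chromosome 1 from 130439027 to 130462744. It was at 13.9, 8.20 and 9.78 CPM in *db/m*, 0.340, 0.400 and 1.14 CPM in *db/db*, and 2.41, 1.05 and 1.81 CPM in *db/db*-dapa mice. All *db/m* mice were far above all *db/db* and *db/db*-dapa mice. Of the diabetic mice, *db/db* replicate 3 lay above *db/db*-dapa replicate 2, so this pair of groups overlapped. In estimated counts, Cd55 had 88, 47 and 44.5 in *db/m* but 1, 2 and 9 for *db/db* and 17, 7.5 and 16 for *db/db*-dapa mice.

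The log2 fold change of Cd55 was -3.86 (SE 0.51, 95% confidence interval -4.98 to -2.75) in *db/db* against *db/m* mice, with edgeR adjusted p = 0.00744, and it was lower in 3 of 3 *db/db* mice. The size is less certain than the call, at -4.75 without *db/db* replicate 3 and -2.84 under limma. It ranked 18 by p among the 15583 genes and 8 by size of the fold change among the 111 genes called lower. In *db/db*-dapa against *db/m* mice it was -2.59 (SE 0.44, 95% confidence interval -3.54 to -1.63), with edgeR adjusted p = 0.0332, lower in 3 of 3 mice. This call was lost without *db/m* replicate 1 (edgeR adjusted p = 0.172), *db/db*-dapa replicate 2 (0.209) or *db/db*-dapa replicate 3 (0.163), and over all leave-one-out fits the adjusted p ran from 0.00783 to 0.209. The exact two-sided permutation test of single CPM values gave p = 0.1 for each of these differences, the smallest that 3 against 3 mice can give.

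In the drug comparison the log2 fold change of Cd55 was 1.28 (SE 0.54, 95% confidence interval 0.10 to 2.46), with an unadjusted p of 0.0361 and edgeR adjusted p = 0.854, and Cd55 was not called. It was 2.17 without *db/db* replicate 3 (edgeR adjusted p = 0.134). Of the leave-one-out fits it was lowest without *db/db*-dapa replicate 1, at 0.995 (edgeR adjusted p = 0.699). Of the 101-base stretches of the longest Cd55 transcript, 6.78% occur in the neighbouring copy Cd55b, which had at most 1.5 estimated counts in any library. Adding the copy left Cd55 called in both comparisons with *db/m*. The annotation also holds Gm16083, an antisense gene on the opposite strand, from 130462576 to 130557075, that overlaps the start of Cd55. Gm16083 is not among the genes listed. Whether strand was used in counting is not known, and its part in the Cd55 counts was not tested.

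Cd59a encodes the membrane protein that blocks assembly of the terminal pore and lies on chromosome 2 from 104095801 to 104115354. Its level was 24.3, 13.4 and 32.4 CPM in *db/m*, 41.8, 29.4 and 20.5 CPM in *db/db*, and 23.7, 19.3 and 24.8 CPM in *db/db*-dapa mice. The groups overlapped in every comparison, with the highest value in *db/db* replicate 1 and the lowest in *db/m* replicate 2. The log2 fold change was 0.37 (SE 0.32, edgeR adjusted p = 0.648) for *db/db* and -0.04 (SE 0.32, edgeR adjusted p = 0.954) for *db/db*-dapa mice, each against *db/m*. The direction of the last value turned under total-count scaling and under limma. With 1 mouse left out, the value for *db/db* against *db/m* mice ran from 0.092 to 0.66. The copy Cd59b shared 0.234% of the stretches and had at most 7 estimated counts.

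Groups without overlap were counted too, as a description. Against *db/m*, 3 of the 7 members (C4b, Cfi and Cd55) did not overlap in *db/db* mice, where 16.4% of all tested genes did not, and 2 (C4b and Cd55) did not in *db/db*-dapa mice, where 28.1% did not. In the drug comparison 1 member, Cfi, did not overlap, against 10.2% of all tested genes. The median log2 fold change of the members was -0.38, -0.12 and -0.15 in *db/db* against *db/m*, *db/db*-dapa against *db/db* and *db/db*-dapa against *db/m* mice, beside 0.02, -0.01 and -0.02 over all tested genes.

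The 59 complement genes extend this picture to the rest of the cascade. Of them 41 were tested and 18 were not, among which Hc (complement C5), C7, C8b, Cfd, Fcnb and Colec10 had 0 counts in all 9 libraries, which allows up to 1.02 CPM (3 counts) in the smallest. In *db/db* against *db/m* mice edgeR called 0 of the 41 higher and 3 lower, Cd55, C4a and C8a, where 0.712% of all tested genes were called lower. Those 3 were also the calls in *db/db*-dapa against *db/m* mice (0 higher, 3 lower; 0.475% of all tested genes lower), and in the drug comparison edgeR, DESeq2 and limma called 0 of 41. At an unadjusted p under 0.05 were 9, 9 and 7 of the 41 in the 3 comparisons, beside 13.7%, 5.19% and 18.2% of all tested genes. The median log2 fold change of the 41 was 0.12, -0.37 and -0.40 in *db/db* against *db/m*, *db/db*-dapa against *db/db* and *db/db*-dapa against *db/m* mice.

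C8a encodes a chain of the terminal pore. It was at 5.04, 5.41 and 9.33 CPM in *db/m*, 0, 0.600 and 1.26 CPM in *db/db*, and 0.284, 0.525 and 0.566 CPM in *db/db*-dapa mice, so all *db/m* mice were above all others. The log2 fold change was -3.11 (SE 0.63, edgeR adjusted p = 0.046) for *db/db* and -3.76 (SE 0.63, edgeR adjusted p = 0.0332) for *db/db*-dapa mice, each against *db/m*. Without *db/db* replicate 3 the first value was -4.10, and limma gave -2.26 and -2.34. Omission of *db/m* replicate 1 or 3 ended both calls (edgeR adjusted p 0.123 and 0.148, then 0.104 and 0.143). So did omission of *db/db* replicate 2 for the *db/db* call (0.140) and of *db/db*-dapa replicate 2 or 3 for the *db/db*-dapa call (0.194 and 0.146). C8g, which led the terminal genes, was at 25.7, 15.7 and 36.4 CPM in *db/m*, 15.6, 17.01 and 16.5 CPM for *db/db* and 21.6, 16.8 and 19.7 CPM for *db/db*-dapa mice and was not called.

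Among genes of the classical and lectin start, C4a was the gene called, at a log2 fold change of -1.99 (SE 0.44, edgeR adjusted p = 0.0691) for *db/db* and -1.85 (SE 0.43, edgeR adjusted p = 0.0922) for *db/db*-dapa mice, each against *db/m*. Its *db/db* call ended without *db/m* replicate 1 (0.258), *db/m* replicate 3 (0.171), *db/db*-dapa replicate 2 (0.117) or *db/db* replicate 2 (0.140) and when only the 2 groups were fitted (0.126). The *db/db*-dapa call ended under limma (0.140) and without any of *db/m* or *db/db*-dapa replicates 1, 2 and 3 or *db/db* replicate 2, with adjusted p up to 0.423. C2, the partner of C4, led this list and was at 69.5, 53.0 and 55.5 CPM in *db/m*, 91.4, 75.8 and 69.6 CPM in *db/db*, and 47.3, 48.8 and 39.5 CPM in *db/db*-dapa mice. All *db/db*-dapa mice were below all others, and all *db/db* mice were above all *db/m* mice. Even so, C2 was not called in the drug comparison (log2 fold change -0.80, SE 0.18, edgeR adjusted p = 0.854).

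**Figure D3:**
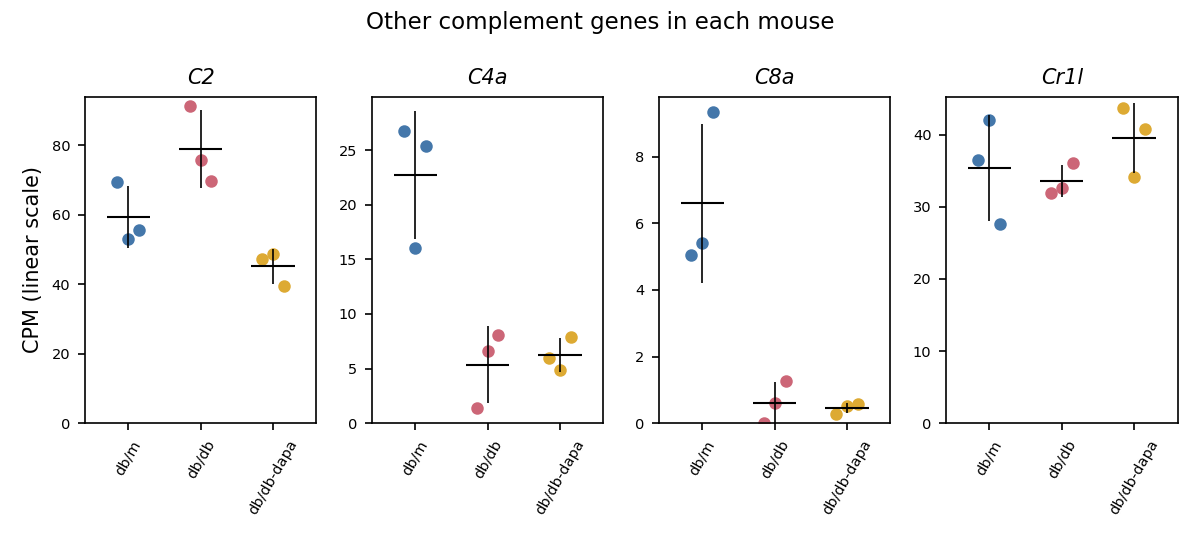
CPM of 4 other complement genes in each mouse on a linear axis from 0, with a separate scale per gene; points are mice, horizontal bars group means and vertical bars the SD (n = 3 per group). C4a and C8a were called lower in both diabetic groups against *db/m* mice, and C2 (39.5 to 48.8 CPM in *db/db*-dapa mice) and Cr1l were not called.

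Of 7 tested membrane regulators Cd55 was the gene called, and Cr1l, which encodes the rodent regulator Crry, led the list at 36.5, 42.1 and 27.6 CPM in *db/m*, 32.0, 32.6 and 36.1 CPM in *db/db*, and 43.7, 34.1 and 40.7 CPM in *db/db*-dapa mice. Cd59a was above Cr1l in *db/m* replicate 3 and *db/db* replicate 1, and per kilobase on average in both of these groups. Cr1l overlapped in all comparisons, and its 95% confidence interval of -0.49 to 0.34 in *db/db* against *db/m* mice left out a 2-fold difference. Per kilobase Cr1l was at 12.7 CPM and Cd55 at 4.19 CPM in *db/m*, and at 12.1 and 0.247 CPM in *db/db* mice. Cd46 was low, at 0 to 0.222 CPM in *db/m* mice and, without overlap, at 0.400 to 1.02 CPM in the other groups, and was not called (log2 fold change 2.53, edgeR adjusted p = 0.255 for *db/db*; 1.90, edgeR adjusted p = 0.297 for *db/db*-dapa mice). Cd55b, too low to be tested, was at 0.157 to 0.444 CPM in *db/m* mice and at most 0.142 CPM elsewhere.

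In the soluble regulators edgeR, DESeq2 and limma called 0 of 5 tested genes in each comparison, with 1, 2 and 2 at an unadjusted p under 0.05 (13.7%, 5.19% and 18.2% of all tested genes). Cpn1, which encodes the catalytic subunit of the carboxypeptidase that inactivates anaphylatoxins, led the list at 184, 159 and 173 CPM in *db/m*, 225, 213 and 172 CPM for *db/db* and 334, 278 and 181 CPM for *db/db*-dapa mice. Clu was above Cpn1 in *db/m* replicates 1 and 3. Receptors likewise held 0 called of 9 by the 3 tools, with 1, 3 and 0 at that p and C1qbp in the lead at 116 to 186 CPM over the 9 mice. C1qa, C1qb and C1qc, products of macrophages, were highest in *db/db* replicates 1 and 2 (C1qa 20.4 and 16.0 CPM) and low in *db/db* replicate 3 (3.41 CPM). Without *db/db* replicate 3, C1qa and Cd93 were among the genes edgeR called in the drug comparison. The macrophage markers given above and the endothelial markers (191, 227 and 77.7 CPM in *db/db* mice) were also lowest within *db/db* mice in that replicate, and their part in these values was not tested.

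Lists of genes that inflammatory signals induce were set beside the members. Of 20 interferon-inducible genes edgeR and limma called 0 in each comparison, while 7, 1 and 11 had an unadjusted p under 0.05 and DESeq2 called 3, 0 and 5. Over all tested genes the shares were 13.7%, 5.19% and 18.2% at that p and 2.33%, 0.0834% and 3.25% by DESeq2, against which the other lists in this paragraph are also to be read. Their median log2 fold change was -0.98 for *db/db* and -1.10 for *db/db*-dapa mice, each against *db/m*, and -0.14 in the drug comparison. B2m, which led this list, was at 431, 387 and 284 CPM in *db/m*, 333, 317 and 156 CPM for *db/db* and 303, 172 and 156 CPM for *db/db*-dapa mice. Of 18 tested acute-phase and NF-kB genes edgeR and limma called 0 (1, 2 and 0 at an unadjusted p under 0.05; DESeq2 1, 0 and 0), with medians of 0.11 and -0.13 for the 2 diabetic groups (*db/db* first) against *db/m* mice and -0.25 in the drug comparison, and Stat3 led at 52.0 to 148 CPM, although Nfkbia was higher per kilobase in each group. Among 9 tested neighbours of Cfb and C4b on chromosome 17 the gene edgeR called was C4a, and Ehmt2 led at 119 to 185 CPM. Of these 9, 3, 2 and 4 were at an unadjusted p under 0.05, DESeq2 called 1, 0 and 2 and limma 1, 0 and 0, and the medians were -0.30, -0.27 and -0.49. All 9 were lower in *db/db*-dapa than in *db/m* mice, from -1.85 to -0.005, where 51.5% of all tested genes were lower. Among 10 injured-tubule genes edgeR and limma called 0, with 3, 1 and 3 at an unadjusted p under 0.05, and DESeq2 called 2, 0 and 1. Their medians were -0.63, -0.03 and -0.69, and 8, 5 and 7 of the 10 were lower, beside 48.4%, 51.2% and 51.5% of all tested genes. Spp1, which led them, was at 587 to 789 CPM in *db/m* and 773 to 1836 CPM in the other groups and was not called.

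Each member was matched to the genes with the most similar log2(CPM + 1) over the 9 mice, among tested genes with a mean of at least 5 CPM, as a description. Group means were not removed, so r includes differences between groups, such as that of *db/m* from all other mice in Cd55. Cd55 was most like Kap (Pearson's r = 0.993), Akr1c14 (0.978) and Fmo5 (0.971). C4b followed Naa16 (0.975), Snhg1 (0.958) and Sfpq (0.942), and C3 followed Ppp3cb (0.965), Itgb6 (0.960) and Wasf2 (0.958). For Cfb the closest were Samd14 (0.957), Zfp101 (0.916) and Gm14325 (0.899), and for Cfi they were Cldn10 (0.917), Htra1 (0.911) and Ano10 (0.909). Serping1 was nearest to Marcks (0.945), Mrpl17 (0.937) and Etohd2 (0.934), and Cd59a to D630013N20Rik (0.964), Tmc4 (0.958) and Zfp467 (0.956). No gene appeared for more than 1 member, which says little, since only 3 of 10515 or 10516 genes were kept for each. Among the 7 themselves, r was highest for C4b with Cd55 (0.807) and lowest for C3 with Serping1 (-0.642).

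Promoter sequences (250 bases before to 50 after the start, RefSeq, GRCm38.p6) were matched for 3 of the 7 members, C3, Cd55 and Cd59a. Those of Cd55, on the minus strand at chr1:130462695-130462994, and Cd59a, on the plus strand at chr2:104095551-104095850, are shown because they set the membrane regulator that was called beside the one that was not. Capitals mark matches, on either strand, to any of 4 motifs: kappa-B, ISRE, STAT (TTCNNNGAA) and C/EBP (TTGCNNAA). The letters searched for the first 2 are not given here, so their shares below cannot be weighed against how loose the pattern is.
Cd55: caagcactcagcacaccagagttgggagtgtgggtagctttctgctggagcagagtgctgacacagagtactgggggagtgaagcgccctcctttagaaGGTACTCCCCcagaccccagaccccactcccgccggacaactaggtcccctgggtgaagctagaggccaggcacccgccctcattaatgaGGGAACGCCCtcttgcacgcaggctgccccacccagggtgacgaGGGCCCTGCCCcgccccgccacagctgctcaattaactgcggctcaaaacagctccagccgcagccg
Cd59a: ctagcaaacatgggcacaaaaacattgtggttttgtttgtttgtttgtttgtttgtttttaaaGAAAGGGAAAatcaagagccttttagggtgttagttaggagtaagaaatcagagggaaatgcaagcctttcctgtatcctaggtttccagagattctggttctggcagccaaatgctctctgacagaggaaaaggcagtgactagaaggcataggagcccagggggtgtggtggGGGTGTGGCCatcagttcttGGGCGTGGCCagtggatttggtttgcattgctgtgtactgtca

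The Cd55 window held kappa-B letters in 3 stretches, the last 2 of them matched on both strands, and no match to the other 3 motifs. In Cd59a, kappa-B letters stood at 2 places near the start and ISRE letters once on the minus strand, at bases 64 to 73 of the window. The C3 window, on the minus strand at chr17:57228087-57228386, held kappa-B letters and 1 C/EBP match, TTGCGAAA. Of 32851 promoters of the same length, 50.8% held kappa-B letters, 3.44% ISRE, 8.30% STAT and 10.8% C/EBP letters. Such matches describe the sequence only.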

How the data were processed

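Poly(A) RNA from sorted cells of 9 mice was sequenced with 101-base single-end reads from a stranded kit. The authors aligned reads to mm10 with TopHat2 2.0.13, Bowtie2 2.2.3 and SAMtools 0.1.19 and used Cufflinks 2.2.1, per the submitters' processing notes. The deposited table is named for FPKM, but it holds estimated counts (85.9% of values above 0 are exactly whole, and totals differ between mice). How they were made, and whether strand was used, is not given in the sources used here.

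Values were rounded and fitted with edgeR 4.0.16 in R 4.3.3 (TMM scaling, earlier quasi-likelihood form, all 9 mice in 1 fit). Genes at 0.3 CPM or more in at least 2 mice were tested (15583), with Benjamini-Hochberg adjustment over all of them. Standard errors came from F values. In simulated data with 200 genes changed 4-fold edgeR called 170 of them and 19 unchanged genes; with 2-fold changes it called 55 and 10. Members and lists were chosen with earlier results of these data known. Named from lists were the genes called and the gene with the highest mean CPM, with others (C1qa, C1qb, C1qc, Cd93, Cd46, Cd55b, Clu, Nfkbia) chosen after their values were seen; some results are not reported here. Alternatives used DESeq2 1.42.0, limma 3.58.1 on log2(CPM + 1), other filters, scalings and samples. Coordinates are those of GENCODE for GRCm38.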

Additional observations from a re-analysis of the deposited data

How the results depend on the processing

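The 7 members' log2 fold changes in 3 comparisons were recomputed under the alternatives, giving 387 values. Of these, 372 kept both the direction and the outcome, called or not called, although some crossed a log2 fold change of 1 in size. Cd55 in *db/db* against *db/m* mice was called under every alternative run, at log2 fold changes of -4.75 to -2.84. Its call in *db/db*-dapa against *db/m* mice was lost in 3 leave-one-out fits, so that members called ranged from 0 to 1 over the leave-one-out fits of that comparison. The cause was not tested. The summed counts of C4b and C4a were called lower in both diabetic groups against *db/m* mice. C4a was called there by itself in the main fit, and C4b by itself was called under no alternative. The log2 fold changes of the sum were -1.02 and -1.10 (*db/db* first).

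Directions turned for small values. With total counts only, Cfb in *db/db* against *db/m* mice was at 0.083 and Cd59a in *db/db*-dapa against *db/m* mice at 0.011, and limma gave 0.028 for the latter. Total-count scaling moved the median of all genes in *db/db* against *db/m* mice to 0.13. Leave-one-out values ran from -0.12 to 0.10 for Cfb and -1.07 to 0.030 for Serping1 (*db/db* against *db/m*), from -0.21 to 0.84 for C3 and -1.69 to 0.21 for Serping1 (*db/db*-dapa against *db/db*), and from -0.32 to 0.26 for Cd59a (*db/db*-dapa against *db/m*).

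Complement genes called, with 1 mouse left out, numbered 1 to 3, 0 to 3 and 0 to 3 in *db/db* against *db/m*, *db/db*-dapa against *db/db* and *db/db*-dapa against *db/m* mice. Over all genes edgeR called 197, 0 and 164. DESeq2 called 363, 13 and 507, fits of only the groups compared 115 and 630 in the first and last, and no filter 275 in the last. Leaving out 1 mouse gave 85 to 230, 0 to 272 and 14 to 664, the highest in each without *db/db* replicate 3. With a replicate block the counts were 185, 0 and 166 and no member's call changed. Deviations of same-numbered mice had r from -0.32 to 0.56. Replicates 1 and 3 of *db/db* and *db/db*-dapa mice were at 0.40 and 0.56, but replicate 2 was at -0.16. Not every mouse correlated best with its own number, but this cannot exclude that some same-numbered mice share more than a number. The labels do not say what a number shares, so the main fit used no block.

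With 3 mice per group, differences of less than 2-fold are poorly resolved. For Cfi, Serping1 and Cd55, which had few reads, some differences of 2-fold or more are poorly resolved too. In the drug comparison Cfi was 2.04-fold and Cd55 2.42-fold higher, each at edgeR adjusted p = 0.854, and neither was called. The confidence interval of the Serping1 log2 fold change there ran from -2.09 to 1.13. Near-identical copies and the read-through over Cfb limit gene assignment.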
